A study of Medicago ruthenica with 3 samples.

Results

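Transcripts annotated as transcription factors, other than those of the families that plant miRNAs classically cut, were followed in the degradome of Medicago ruthenica leaves. They were chosen by words: a transcript was taken when its annotation held "transcription factor", WRKY, MYB, bZIP, "zinc finger protein CONSTANS" or "ethylene-responsive". It was left out when the annotation named a classical miRNA target family, such as the squamosa promoter-binding, growth-regulating, TCP, scarecrow or homeobox-leucine zipper proteins, GAMYB and NF-Y subunit A, or when the symbol was AP2, REV, LHY, GAM1, BHLH25, NAC021 or an ARF. The words took 247 of the 6912 transcripts of the table, and 25 further transcription factors were left out. The words read only annotations and symbols, but they were set with earlier results of these data known.

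M. ruthenica is a perennial forage legume that withstands drought. All plants were seedlings 4 weeks old at treatment, grown in pots without added nutrients, and only leaves were sampled. Control plants (CK) were watered throughout, with relative soil moisture above 80%. Plants under drought stress (DS) went 15 days without water, down to 20% soil moisture, and rewatered plants (RW) had the same drought and then 2 days of full watering. Leaves of CK and DS were taken on day 15 and those of RW 2 days after rewatering. No control was taken on that later day, so rewatering and the later day cannot be told apart. Each group had 1 degradome library, and whether it pooled several plants was not given in the sources used here.

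Transcription factors bind DNA in front of genes and set how much RNA is made from them. In plants the WRKY, MYB, bHLH, bZIP, NAC and AP2/ERF families carry many of the responses to water shortage and to the hormones abscisic acid, jasmonate and ethylene, while the CONSTANS-like proteins and the phytochrome-interacting factors respond to light. Degradome sequencing reads the 5′ ends of uncapped polyadenylated RNA, which arise when a miRNA guides a cut and also in ordinary RNA decay. A read listed beside a small RNA name was therefore a candidate cut, and whether a miRNA made it was not tested.

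Over all transcripts, CK had 24790 reads, DS had 32719 and RW had 29617. The values were reads per 1000000 of the table (RPM), so a single CK read stood for 40.3 RPM, a DS read for 30.6 and an RW read for 33.8. Differences compare 3 libraries and have no replicate check, and the intervals cover counting error only. The reads carried no molecular identifiers, so copies made in PCR could count as separate reads. In bulk leaves, fewer cells of a type and less RNA per cell cannot be told apart. A higher read count can come with more transcript, more cutting or more decay, and which of them held was not tested. The leaf markers were read: Rubisco activase had 661, 1713 and 742 reads in CK, DS and RW, and 11 chlorophyll a-b binding transcripts together had 279, 129 and 246. The Rubisco small subunit had 4, 0 and 36 reads in CK, DS and RW.

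For the 247 transcripts CK had 615 reads, DS had 1020 and RW had 794. This was 2.48% of the CK reads (95% Clopper-Pearson interval 2.29 to 2.68), 3.12% in DS (2.93 to 3.31) and 2.68% in RW (2.50 to 2.87). The share in DS lay above both others, and the intervals of CK and RW overlapped. As a ratio of RPM the sum stood at 1.26 in DS over CK (95% interval 1.14 to 1.39), 0.860 in RW over DS (0.783 to 0.944) and 1.08 in RW over CK (0.971 to 1.20). All other transcripts together stood at 0.993 in DS over CK. The 25 left-out transcription factors fell to 0.356 of CK in DS (0.303 to 0.418) and stood at 2.85 in RW over DS (2.44 to 3.34). Since the symbols to leave out were set with earlier results of these data known, the contrast with the left-out transcripts is a description only.

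Most of these transcripts were shallow. The median was 3 reads over the 3 libraries, as it was for all transcripts, and 70 had a single read. At least 10 reads were reached by 53 (21.5%, against 19.5% of all transcripts), and 194 stayed below. Reads were found in CK for 129 of them (52.2%, against 51.9% of all transcripts), in DS for 152 (61.5%, against 61.0%) and in RW for 154 (62.3%, against 64.9%). In all 3 libraries 67 (27.1%) were listed, near the 26.8% of the whole table. A further 33 were listed in CK alone, 45 in DS alone and 48 in RW alone, with at most 5, 8 and 7 reads. These were 13.36%, 18.22% and 19.43% of the members, against 11.94%, 17.03% and 19.94% of all transcripts. Those with the most reads in 1 library alone were BZIP60, a factor of the unfolded protein response in Arabidopsis, and WRKY51 in CK, BHLH35 in DS and MADS17 in RW. The 12 deepest transcripts held 45.0% of the reads of the set.

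The name of the set, transcription factors without a conserved miRNA, did not hold for each of them. The deepest transcript (TRINITY_DN21946_c0_g3, no symbol) was annotated to the ARF family, the auxin response factors, and its 264 reads were listed with csi-miR160c-5p_1ss19CT alone. miR160 is a conserved miRNA known to cut auxin response factors. It had 85, 79 and 100 reads in CK, DS and RW, at 0.704 in DS over CK (0.512 to 0.968, exact binomial test, Benjamini-Hochberg adjusted p = 0.103). NFYA1 (TRINITY_DN16968_c0_g2), annotated as a CCAAT-binding factor, passed the words although miR169 is known to cut NF-YA transcripts, and it had 0, 5 and 8 reads, of which 0, 1 and 4 were listed with a miR169 sequence. Without both transcripts the sum stood at 1.34 in DS over CK (1.20 to 1.49), 0.810 in RW over DS (0.733 to 0.894) and 1.08 in RW over CK (0.966 to 1.22). Names of other conserved miRNA families, such as miR396, miR398 and miR408, also stood beside members. The words also caught 52 transcripts outside the sequence-specific DNA-binding families, among them helicases, deacetylases and general transcription factors.

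The 429 entries of the set named 142 of the 348 small RNAs of the table. A sequence named ppe-MIR169i-p5_2ss17GT19TG, whose name points to an arm of a miR169 precursor, was listed most: it held 119 entries on 97 transcripts and 29.8% of the reads of the set, against 18.3% of all reads. Its share of the set was 29.3% in CK, 30.5% in DS and 29.5% in RW, while its share of all reads was 15.2%, 21.5% and 17.5%. The miR160 family came second through the ARF transcript, with 11.1% of the reads. The miR2592 family held 131 reads, miR2673 held 122 and miR482 held 91. Beyond these, miR398 held 81 reads on 3 transcripts and miR396 held 67 reads on 9.

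**Figure D1:**
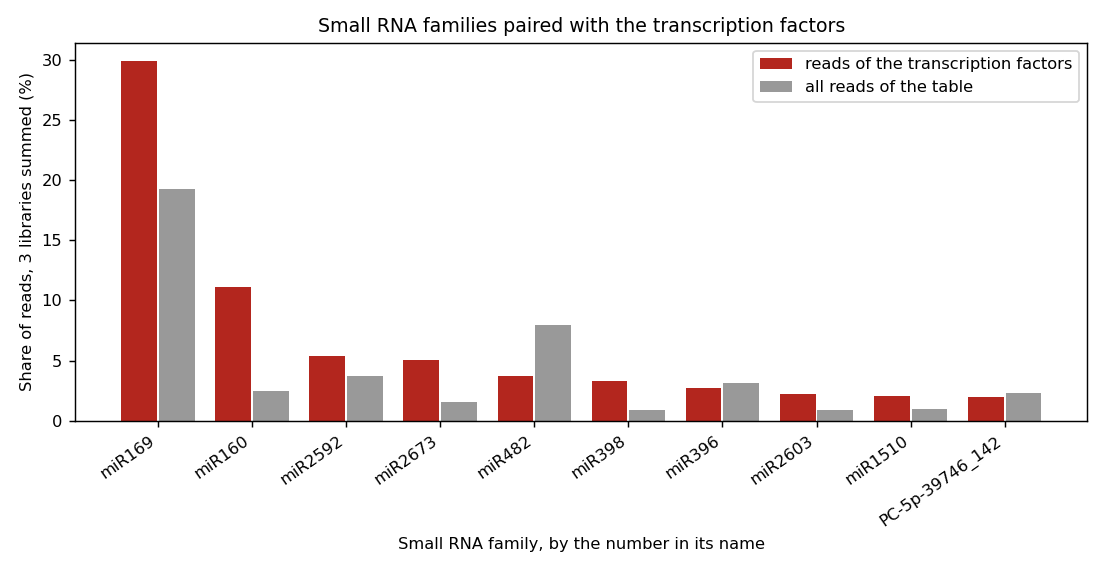
Share of reads (%, 3 libraries summed) by small RNA family for the 10 families with the most reads on the transcription factors, as red bars, beside their share of all reads of the table, as grey bars. The miR169 sequences held 29.9% of the reads of the set and 19.3% of all reads, and miR160 held 11.1% against 2.47%.

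The miR396 pairs were of interest because miR396 classically cuts growth-regulating factors, which were left out, and in Medicago truncatula also a bHLH gene. The 1 sequence of a small RNA of the set at hand was that of the qPCR oligo which the study used for a miR396 form listed with BHLH144. It is printed 5′ to 3′ with the seed (bases 2 to 8 of the small RNA) in capitals, after a tail of 5 bases:
lus-miR396b_R+1_1ss19CT: ccgcgtTCCACAGctttcttgaatttt
Of the bHLH transcripts, BPE (TRINITY_DN19372_c0_g2), named after a gene of petal growth in Arabidopsis, had 3, 4 and 7 reads with mtr-miR396b-5p in CK, DS and RW. BHLH144 had 0, 2 and 1 read with the form printed above. Over all its entries BPE had 3, 4 and 9 reads and did not pass in RW vs DS, at 2.49 (0.694 to 11.0, exact binomial test, Benjamini-Hochberg adjusted p = 0.368), while BHLH144 was too shallow for a test. The transcript with the most miR396 reads was a NAC-like one, with 1, 15 and 4 reads listed with mtr-miR396b-5p.

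In DS vs CK, the jasmonate regulator MYC2, a MYB44 transcript and 3 further members stood higher in the drought library. Of the 39 members with at least 10 reads over both libraries, 5 passed the test higher in DS (12.8%, against 11.0% of all 928 transcripts tested), and 0 passed it lower (against 9.16% of all). The share called higher was near the background, while no lower call was made. At an unadjusted p under 0.05, 10 members were higher and 1 lower (together 28.2%, against 31.1% of all). The 5 were MYC2, an unnamed MYB-like factor, MYB44, a NAC-like factor and GT-3B. Counted by size alone, 20 of the 39 were at least 2-fold higher (51.3%, against 27.8% of all) and 1 was at least 2-fold lower (2.56%, against 19.6%). The median log2 ratio, with 1 read added to each library, was 0.88 for the members and 0.09 for all transcripts tested. This difference of 0.79 was 0.26 when transcripts with at least 5 reads entered. Only members with enough reads in these libraries entered, so none of these figures speaks for all 247. The 238 transcripts that passed no test in any comparison summed to 1.11 in DS over CK (0.998 to 1.23). Those left out were picked by these same reads and mostly stood high in DS, so a lower sum was fixed in advance.

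**Figure D2:**
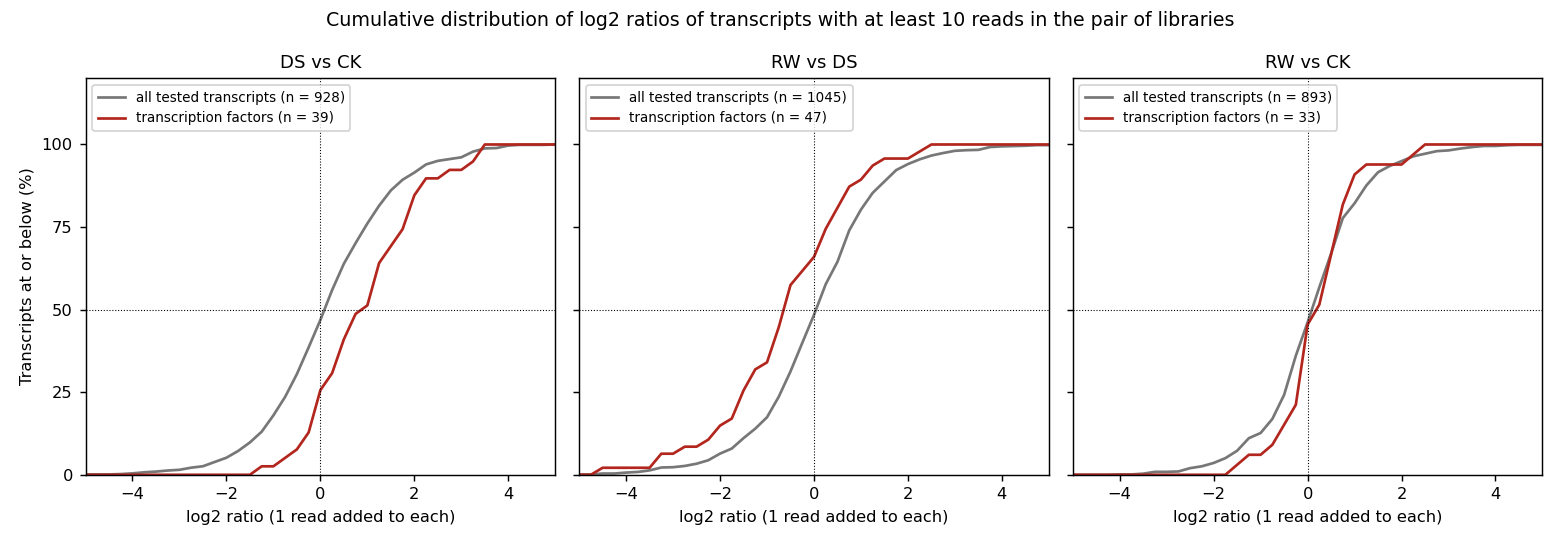
Cumulative share (%) of transcripts at or below each log2 ratio, read every 0.25, in the 3 comparisons, for the transcription factors with at least 10 reads in the pair of libraries (red) and all transcripts tested (grey). The red line lies to the right of the grey one in DS vs CK (medians 0.88 and 0.09), to the left in RW vs DS (-0.64 and 0.07) and close to it in RW vs CK (0.16 and 0.11).

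MYC2 (TRINITY_DN25988_c1_g1), the bHLH factor at the head of the jasmonate response, had 1 read in CK, 26 in DS and 0 in RW. Nearly all of its reads lay in DS. The ratio was 19.7 in DS over CK (3.24 to 808, exact binomial test, Benjamini-Hochberg adjusted p = 0.000111). Its reads were spread over 5 small RNAs and each had its highest count in DS, the deepest being mtr-MIR2678-p5_1 with 1, 9 and 0 reads and mtr-miR2199 with 0, 7 and 0. On the deepest entry alone its adjusted p was 0.0878 by the same test. A second transcript with the symbol MYC2 (TRINITY_DN24297_c1_g1, annotated as MYC3) had 5, 17 and 7 reads, at 2.58 in DS over CK (0.912 to 8.93, exact binomial test, adjusted p = 0.223).

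MYB44 (TRINITY_DN14068_c1_g1), an R2R3-MYB factor tied to abscisic acid and stomatal closure in Arabidopsis, had 5, 27 and 6 reads in CK, DS and RW. CK and RW had nearly the same count and DS stood above both. It stood at 4.09 in DS over CK (1.55 to 13.6, exact binomial test, Benjamini-Hochberg adjusted p = 0.0139). Each of its 3 small RNAs, PC-5p-35690_161, mtr-miR5213-5p and mtr-miR168b, was highest in DS, with 12, 8 and 7 reads there. The other MYB44 transcript (TRINITY_DN18781_c1_g2) had 6, 19 and 11 reads, at 2.40 (0.921 to 7.34), and did not pass (exact binomial test, adjusted p = 0.199). The MYB-like transcript without a symbol (TRINITY_DN25143_c0_g1) had 1, 26 and 4 reads, and 23 of those in DS were listed with mtr-MIR2603-p3_2ss9AC17AC. Its ratio was 19.7 (3.24 to 808, exact binomial test, adjusted p = 0.000111).

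The NAC-like factor (TRINITY_DN25005_c1_g1) had 1 read in CK, 16 in DS and 4 in RW. NAC proteins form a large plant family with many members in stress responses and ageing leaves. It stood at 12.1 in DS over CK (1.88 to 508, exact binomial test, Benjamini-Hochberg adjusted p = 0.00897). GT-3B (TRINITY_DN19453_c0_g1), a trihelix factor that binds GT elements of promoters, had 0, 10 and 3 reads. Against a floor of 3 reads in CK it was at least 2.53-fold higher in DS (exact binomial test, adjusted p = 0.0364), and since the floor is no confidence limit, the exact lower limit of 1.70 lies below it. GT-3B entered this test only through its 10 reads in DS, so the filter itself favoured a call higher in DS.

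**Figure D3:**
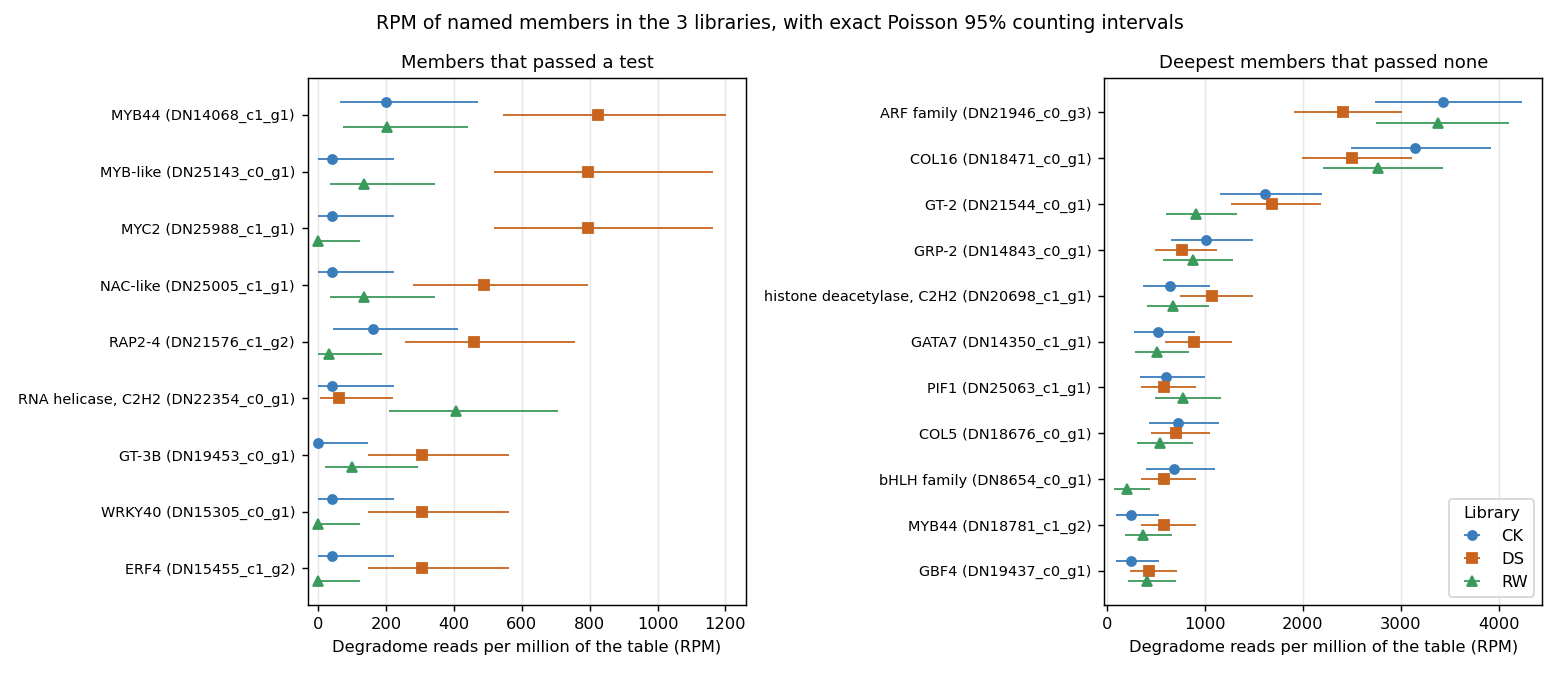
RPM (linear axis) in CK, DS and RW for the 9 members that passed a test, on the left, and for the deepest members that passed none, on the right, with exact Poisson 95% counting intervals as bars. On the left 8 members had their highest value in DS and the RNA helicase transcript in RW, with 12 reads (405 RPM). On the right the intervals of every member overlapped between all 3 libraries.

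In RW vs DS, several of these transcripts stood lower again after rewatering. This comparison shares the DS library with DS vs CK, so a high or low count in DS enters both, and the 2 sets of calls are no independent evidence of each other. Of 47 members tested, 6 passed lower (12.8%, against 8.42% of the 1045 transcripts tested) and 1 passed higher (2.13%, against 9.95%). At least 2-fold lower were 18 (38.3%, against 20.3%) and at least 2-fold higher were 6 (12.8%, against 21.5%). The median log2 ratio was -0.64 for the members and 0.07 for all transcripts tested, and their difference of -0.72 was -0.32 with at least 5 reads.

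The 6 lower in RW were MYC2, MYB44, the MYB-like transcript, RAP2-4, WRKY40 and ERF4. MYC2, with 26 reads in DS and none in RW, was at least 7.84-fold higher in DS than the floor of 3 reads in RW (exact binomial test, Benjamini-Hochberg adjusted p = 1.69e-06), with an exact lower limit of 5.94. MYB44 (TRINITY_DN14068_c1_g1) stood 4.07-fold higher in DS than in RW (1.65 to 12.1, exact binomial test, adjusted p = 0.00658), and the MYB-like transcript 5.88-fold higher (2.04 to 23.2, exact binomial test, adjusted p = 0.00183). RAP2-4 (TRINITY_DN21576_c1_g2), an AP2/ERF factor that answers to drought and ethylene in Arabidopsis, had 4, 15 and 1 reads in CK, DS and RW, all listed with ppe-MIR169i-p5_2ss17GT19TG. It stood 13.6-fold higher in DS than in RW (2.09 to 572, exact binomial test, adjusted p = 0.00619).

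WRKY40 (TRINITY_DN15305_c0_g1), a repressor in abscisic acid and defence responses of Arabidopsis, had 1, 10 and 0 reads. The 10 reads in DS were all listed with gma-MIR10423-p5_1ss3AC. ERF4 (TRINITY_DN15455_c1_g2), whose symbol is that of an ethylene response repressor, also had 1, 10 and 0 reads, 9 of those in DS with mtr-MIR2678-p5_1, the sequence listed with MYC2. Both were at least 3.02-fold higher in DS than the floor in RW (exact binomial test, Benjamini-Hochberg adjusted p = 0.0156 each), with an exact lower limit of 2.03. Both entered this test only through their 10 reads in DS, so the filter itself favoured such a call. In DS vs CK each stood at 7.58 (1.08 to 329) and did not pass (exact binomial test, adjusted p = 0.107).

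The 1 transcript higher in RW (TRINITY_DN22354_c0_g1) was annotated as an RNA helicase with a C2H2 zinc finger, a protein of RNA handling by its name rather than a DNA-binding regulator. It had 1, 2 and 12 reads in CK, DS and RW, all 12 of RW with mtr-miR168b. It stood at 6.63 in RW over DS (1.48 to 61.0, exact binomial test, Benjamini-Hochberg adjusted p = 0.0333). It was also the 1 member that passed in RW vs CK, at 10.0 (1.49 to 429, exact binomial test, adjusted p = 0.0411). Both calls were lost with at least 5 reads, the first also with no scaling and the second with the median of ratios as the scale (exact binomial test, adjusted p between 0.0529 and 0.0694).

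In RW vs CK the members stood close to the rest of the table. Of 33 tested, 1 was called higher (3.03%, against 7.05% of the 893 transcripts tested) and 0 lower (against 6.27%). At an unadjusted p under 0.05 there were 2 higher and 2 lower (together 12.1%, against 24.1% of all transcripts tested). By size 6 were at least 2-fold higher (18.2%, against 19.9%) and 2 at least 2-fold lower (6.06%, against 14.1%). The median log2 ratio was 0.16 for the members and 0.11 for all transcripts tested, and their difference of 0.05 was -0.29 with at least 20 reads. The bHLH transcript TRINITY_DN8654_c0_g1, listed only with a miR1509a form, had 17, 19 and 6 reads and stood at 0.295 in RW over CK (0.0954 to 0.785, exact binomial test, Benjamini-Hochberg adjusted p = 0.0647).

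Over the 53 members with at least 10 reads in the 3 libraries, 30 (56.6%) had their highest RPM in DS, 14 (26.4%) in RW and the other 9 in CK. Among all 1351 transcripts of that depth the shares were 36.2% in DS, 35.2% in RW and 28.6% in CK. The scale bears on these counts: against the mapped reads of each library in place of the table totals, 18 of the 39 members tested passed higher in DS vs CK, where 25.0% of all transcripts did.

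Among the DNA-binding families of at least 10 transcripts, AP2/ERF and MYB stood highest in DS relative to CK. The 20 AP2/ERF transcripts, which answer to ethylene and to dehydration, summed to 11, 52 and 20 reads in CK, DS and RW, at 3.58 in DS over CK (1.85 to 7.61) and 0.425 in RW over DS (0.240 to 0.724). Reads were listed for 6 of them in CK, 14 in DS and 11 in RW, where 51.9%, 61.0% and 64.9% of all transcripts were listed. Of the 20 only RAP2-4 and ERF4 had the reads for a test, and neither passed in DS vs CK. RAP2-4 stood there at 2.84 (0.905 to 11.8, exact binomial test, Benjamini-Hochberg adjusted p = 0.189). Without RAP2-4 the family sum stood at 4.01 in DS over CK (1.76 to 10.6). ERF106 (TRINITY_DN19104_c0_g5), with 1, 7 and 0 reads, and ERF023 (TRINITY_DN19445_c0_g1), with 2, 1 and 6, had their highest counts in different libraries. A second ERF106 transcript had 1, 3 and 1 reads and a second ERF023 transcript 0, 3 and 1, both highest in DS. All of these were at a depth too low for a test.

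The 31 MYB and MYB-like transcripts had 45, 139 and 80 reads in CK, DS and RW. Their sum stood at 2.34 in DS over CK (1.66 to 3.35) and 0.636 in RW over DS (0.477 to 0.843), and without the deepest transcript at 2.12 (1.47 to 3.13) and 0.730 (0.537 to 0.988). Of 7 tested in DS vs CK, 2 passed higher (against 11.0% of all transcripts tested), and the median log2 ratio was 1.82 (0.09 for all). DIVARICATA, named after a snapdragon factor of flower shape, and MYB48 each had 1, 9 and 1 read. KAN2, a GARP-type factor of leaf polarity, had 3, 1 and 7.

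The 39 bHLH transcripts had 77, 149 and 101 reads, at 1.47 in DS over CK (1.11 to 1.96) and 0.749 in RW over DS (0.576 to 0.971). The 13 bZIP transcripts had 29, 60 and 46, at 1.57 in DS over CK (0.990 to 2.53), an interval that reached 1. GBF4, a G-box binding bZIP factor, was the deepest of them with 6, 14 and 12 reads. ABF2, which binds the abscisic acid response element in Arabidopsis, had 6, 16 and 9 reads, at 2.02 (0.751 to 6.30, exact binomial test, Benjamini-Hochberg adjusted p = 0.385).

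The WRKY, trihelix and CONSTANS-like families had sums whose DS over CK interval included 1. The 21 WRKY transcripts had 27, 32 and 29 reads, at 0.898 (0.521 to 1.56). Within them WRKY40 was highest in DS, whereas WRKY3, with 6, 2 and 10 reads, and WRKY21, with 6, 2 and 7, were lowest there. WRKY3 stood at 5.52 in RW over DS (1.18 to 51.8, exact binomial test, Benjamini-Hochberg adjusted p = 0.0769). The 18 trihelix transcripts had 80, 107 and 67 reads, at 1.01 in DS over CK (0.751 to 1.37) and 0.692 in RW over DS (0.502 to 0.948). GT-2 (TRINITY_DN21544_c0_g1), a factor that binds light-responsive promoters, was the deepest of these with 40, 55 and 27 reads over 7 entries, and stood at 0.542 in RW over DS (0.329 to 0.875, exact binomial test, adjusted p = 0.0540). Its entry with PC-3p-13773_457 and an entry with ppe-MIR169i-p5_2ss17GT19TG had equal counts of 5, 7 and 3. Whether these were the same reads was not tested.

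**Figure D4:**
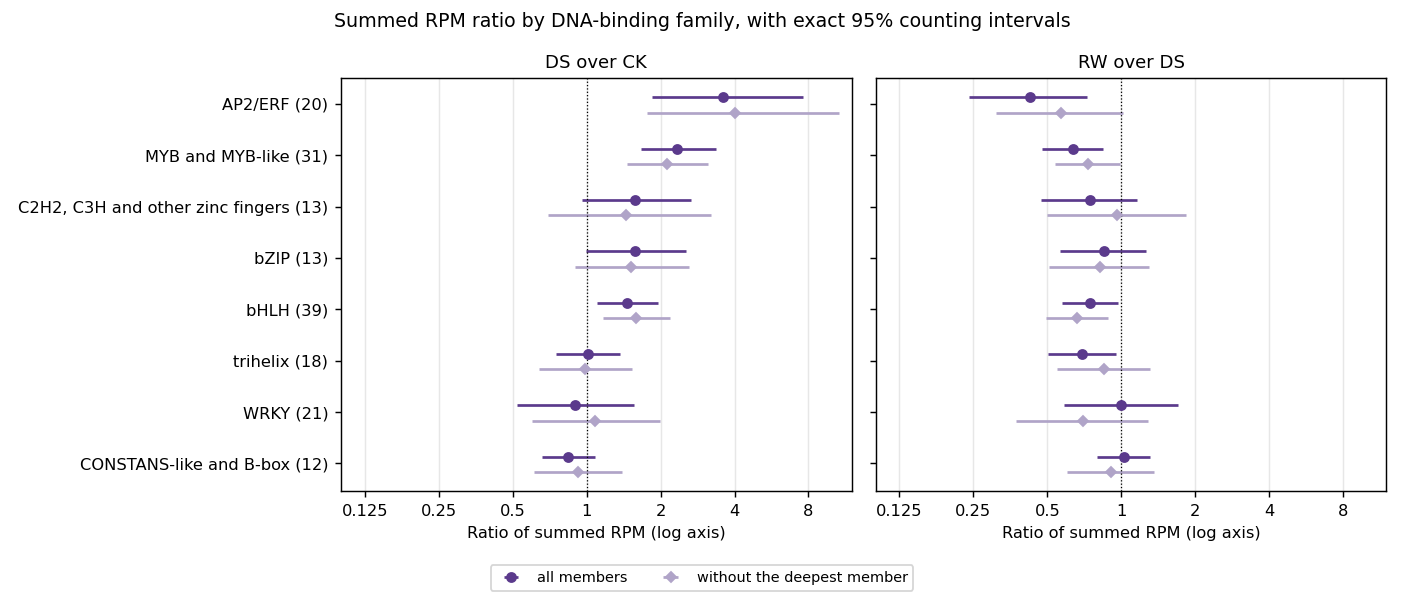
Ratio of summed RPM (log axis) in DS over CK and RW over DS for the DNA-binding families with at least 10 transcripts (number in brackets), with exact 95% counting intervals, for all members (dark circles) and without the deepest member of each family (pale diamonds). AP2/ERF (3.58), MYB (2.34) and bHLH (1.47) had DS over CK intervals above 1, and CONSTANS-like (0.843), WRKY (0.898) and trihelix (1.01) had intervals that include 1.

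None of the few factors of light responses or the circadian clock with the reads for a test passed it. Of 20 such transcripts, 6 were tested in DS vs CK (where 11.0% of all passed higher and 9.16% lower), 7 in RW vs DS (9.95% and 8.42%) and 6 in RW vs CK (7.05% and 6.27%), so few that no call at all says little. An unadjusted p under 0.05 was reached by a CONSTANS-LIKE 4 transcript in DS vs CK and RW vs DS and by PIF4, with 9, 15 and 4 reads, in RW vs DS. Of all transcripts tested, 31.1% reached it in DS vs CK and 31.2% in RW vs DS. The sum of the 20 stood at 0.872 in DS over CK (0.698 to 1.09) and 1.02 in RW over DS (0.816 to 1.27). COL16 (TRINITY_DN18471_c0_g1), a CONSTANS-like B-box protein, had 78, 82 and 82 reads, at 0.797 in DS over CK (0.577 to 1.10), of which 56, 59 and 65 were listed with ppe-MIR169i-p5_2ss17GT19TG. COL5 had 18, 23 and 16 reads and PIF1, a phytochrome-interacting repressor of germination in the dark, had 15, 19 and 23. The CONSTANS-LIKE 4 transcript (TRINITY_DN20124_c0_g1) differed from these in its counts, with 4, 19 and 5 reads, and stood at 3.60 in DS over CK (1.20 to 14.5, exact binomial test, Benjamini-Hochberg adjusted p = 0.0765).

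The 11 regulators of drought, abscisic acid and jasmonate responses had 26, 123 and 40 reads in CK, DS and RW. Their sum stood at 3.58 in DS over CK (2.33 to 5.70), 0.359 in RW over DS (0.245 to 0.517) and 1.29 in RW over CK (0.767 to 2.20). Of 6 tested, 2 passed higher in DS vs CK (against 11.0% of all transcripts tested) and 3 passed lower in RW vs DS (against 8.42%), and the median log2 ratio was 1.50 in DS vs CK and -1.44 in RW vs DS. The list was drawn up with earlier results of these data known, so its direction is no independent evidence. The 7 regulators of endoplasmic reticulum and heat stress had 20, 19 and 15 reads, with BZIP17 at 9, 11 and 10.

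Among the proteins around these factors, 34 transcripts had a name matching words for partners of MYC2 and of phytochrome-interacting factors, and these summed to 45, 74 and 51 reads. The words also caught other proteins, such as heat shock proteins with MED37 symbols and TPLATE, a protein of endocytosis. Of 3 tested in DS vs CK, COP1-interactive protein 1, with 4, 21 and 12 reads, passed higher (against 11.0% of all) and MED37F, annotated as a luminal-binding protein, a chaperone, with 17, 7 and 7, passed lower (against 9.16%). A JAZ-type repressor of jasmonate signalling, TIFY3B, had 0, 0 and 7 reads. A further 50 transcripts outside the set were matched by names of DNA-binding families and of auxin-responsive proteins, among them AUX/IAA repressors and SAUR proteins, which are not known to bind DNA themselves. Of 8 tested in DS vs CK, 0 passed higher and 1 lower (against 11.0% and 9.16% of all). NAC021 and 1 AUX28 transcript (TRINITY_DN21274_c0_g2) passed higher among 9 tested in RW vs DS (against 9.95%) and among 8 in RW vs CK (against 7.05%). A deeper AUX28 transcript (TRINITY_DN22520_c0_g3), with 74, 95 and 111 reads, was tested and passed in neither. The transcripts named from either list were chosen after their values were seen.

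The remaining deep members passed no test. GRP-2 (TRINITY_DN14843_c0_g1), a glycine-rich cold shock protein that binds RNA, had 25, 25 and 26 reads over 7 entries. GATA7, a GATA zinc finger factor, had 13, 29 and 15 reads, all with mtr-MIR2592ay-p5_2ss6AG17CG, at 1.69 in DS over CK (0.851 to 3.54). A histone deacetylase with a C2H2 finger (TRINITY_DN20698_c1_g1) had 16, 35 and 20 reads, all with miR398 forms, at 1.66 (0.893 to 3.21). Both transcripts had more reads in DS than in the other libraries, with intervals that included 1.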

How the data were processed

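Leaf degradome libraries of CK, DS and RW plants (1 each) were grouped by title and treatment label. The authors sequenced single-end reads and searched cleavage sites with ACGT101-DEG, built on CleaveLand4, against their own Trinity assembly. The deposited table pairs a small RNA with a transcript and gives RPM values that the authors scaled to 1000000 per library over the table. Every RPM value was a whole multiple of 1 step (100% within 0.01 of a read), so whole reads were recovered and summed per transcript. Sums can count a read more than once where it stands beside several small RNAs. The tests and intervals treat such repeats as separate reads, so there the intervals are too narrow and the p-values too small.

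For transcripts of at least 10 reads over both libraries, an exact binomial test (two-sided, conditional on their sum) was run against the table totals (Python 3.11.15, scipy 1.17.1), with Benjamini-Hochberg adjustment over all transcripts tested (statsmodels 0.14.6) and a threshold of 0.05. The test was tested on simulated data, in which no read was counted more than once. Each member that passed had met the minimum of 10 reads through its higher library alone. A read count of 0 was set to a floor of 3 reads for a fold. Ratios have exact 95% intervals. Log2 ratios had 1 read added. Cleavage positions, alignment scores and categories were not used here.

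Named are members that passed a test, the 12 with the most reads, the deepest of each family with at least 3 members of 10 reads, and those with a textbook pair; the other transcripts named were chosen after their values were seen. The 12th and the 13th member tied at 32 reads. Members, families and lists were chosen with earlier results of these data known, and families were revised after their values were seen. Alternatives were other scalings, read minimums, the deepest entry of each transcript, sequence-specific families only, a pseudocount of 0.5 and leaving out members or 1 small RNA.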

Additional observations from a re-analysis of the deposited data

How the results depend on the processing

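No paired analysis was possible because each group had 1 library. The library totals mattered most. With no scaling, 11 of 39 members were called higher in DS vs CK (against 19.3% of all transcripts tested), with a member sum of 1.66. In RW vs DS 0 of 47 were called higher (against 7.46% of all) with a sum of 0.778, and the RW vs CK sum was 1.29. With mapped reads as the scale, 18 of 39 were called higher in DS vs CK (against 25% of all) with a sum of 1.82. In RW vs DS 2 of 47 were then called higher (against 11.96% of all). In RW vs CK 3 of 33 were called higher (against 22.84% of all) with a sum of 1.66. That scale moved the median log2 ratio of all transcripts to 0.62, 0.16 and 0.73 in the 3 comparisons, and no scaling moved it to 0.49, -0.07 and 0.36. With the median of ratios, 0 of 33 were called higher (against 5.82% of all) and 1 lower (against 7.28%) in RW vs CK. On the deepest entry of each transcript the sums were 1.44 in DS vs CK and 0.779 in RW vs DS. With at least 20 reads, 3 of 20 were called higher in DS vs CK (against 17.3% of all) and 0 of 22 in RW vs DS (against 15.1%). In RW vs CK 0 of 10 were then called higher (against 11.9%) and 1 lower (against 12.1%). With at least 5 reads, 0 of 77 were called higher in RW vs DS (against 4.74% of all) and 0 of 69 in RW vs CK (against 2.45%). The median of the members minus that of all was then 0.26 in DS vs CK and -0.32 in RW vs DS, and with at least 20 reads -0.29 in RW vs CK. The same 0 and 0 held for sequence-specific families alone (against 9.95% and 7.05% of all), which leave out the RNA helicase transcript. Chosen after seeing the data, leaving out the ppe-MIR169i-p5_2ss17GT19TG entries gave 2 of 31 called higher in RW vs DS (against 9.61% of all). Leaving out the ARF and NFYA1 transcripts, also chosen after seeing the data, changed no count. For named members 330 values kept their side of the threshold, 19 passed only under the alternative, 7 no longer passed, and none that had passed changed direction. Of those lost, GT-3B in DS vs CK had an adjusted p of 0.0622 with at least 5 reads, MYB44 in RW vs DS 0.115 on its deepest entry, and the RNA helicase transcript between 0.0529 and 0.0694 under 4 settings (exact binomial test, Benjamini-Hochberg). The cause of these shifts was not tested beyond the scaling, the fewer reads and the fewer transcripts that each alternative leaves. With 194 members under 10 reads, most differences were not detectable at this depth.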
